A study of Sus scrofa with 6 samples.

Results

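Matricellular proteins are secreted into the extracellular matrix, where they act on the cells around them more than they carry load. The 10 genes described here are the thrombospondins THBS1, THBS2, THBS3 and THBS4, the CCN family genes CCN1 (also called CYR61) and CCN2 (also called CTGF), and SPARC, SPP1, TNC and FN1. They were chosen by name, and all 10 were matched by symbol among the 25149 genes of the count files. The values come from RNA sequencing of neonatal pig Sertoli cells (NPSC), the somatic cells that nurse germ cells in the testis tubule, isolated from wild-type Duroc-Landrace piglets aged 3 to 5 days and grown as monolayers in DMEM with fetal bovine serum. In 3 complement NPSC libraries, part of the medium had been replaced by pooled human AB serum with its complement preserved, for 90 min. In 3 baseline NPSC libraries it had been replaced by DMEM alone. Each library came from a plate of its own, and the testes came from 3 litters of 4 male pigs. Whether plates with the same number came from the same litter is not stated. No library here held heat-inactivated serum, so an effect of complement and an effect of the other contents of human serum cannot be told apart.

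The comparison asks whether the RNA of these genes differs after exposure of the cells to human serum with active complement. Thrombospondins bind cells through integrins, CD36 and CD47, and THBS1 is known to restrain new vessel growth and to activate latent TGF-beta. CCN1 and CCN2 are early response genes for serum, stretch and the co-activators YAP and TAZ, and their proteins bind integrins and heparan sulfate. SPARC binds collagen, SPP1 (osteopontin) is an integrin ligand of bone, epithelia and macrophages, TNC (tenascin-C) appears in remodelling tissue, and FN1 (fibronectin) is the fibrillar ligand of integrin alpha-5 beta-1.

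Library totals were 6796183, 7160346 and 8371923 counts for baseline NPSC replicates 1, 2 and 3, and 3927472, 3641518 and 6403606 counts for complement NPSC replicates 1, 2 and 3. Counts on 48 olfactory receptor genes, receptors known from the nasal epithelium, gave a density of 2.15, 1.20 and 1.18 CPM (counts scaled to library size, here the plain library total) per exon kilobase in baseline NPSC replicates 1, 2 and 3 and 4.01, 4.43 and 1.51 in complement NPSC replicates 1, 2 and 3. Multiplied by the exon length of another gene, this density gives what is called the expected background of that gene below, which is an average only. Complement NPSC replicate 3 stood apart from the other complement libraries in this density and in several of the 10 genes. The libraries are bulk samples, so fewer cells of a type and less RNA per cell cannot be told apart. The Sertoli cell markers VIM, CLU, INHA, GATA4, WT1 and SOX9 were counted in every library, and the summed CPM of 10 such markers was 6564 to 10184 in baseline NPSC and 4861 to 6164 in complement NPSC, most of it from CLU and VIM. At an unadjusted p under 0.05, 4 of the 10 Sertoli cell markers were lower and 3 were higher (KRT18 at 0.61, DHH at 0.63 and TF at 0.94 on the log2 scale), against 4.28% lower and 10.9% higher over all tested genes. Background made up an expected 14.6% of the KRT18 counts, 24.9% of the DHH counts and 46.9% of the TF counts. Markers of other testis cells were counted too. Their summed CPM over the 6 libraries was 2290 to 4259 for peritubular myoid cells (led per length by TAGLN, ACTA2 and ACTG2), 256 to 608 for endothelial cells (PECAM1, KDR and TEK), 62.2 to 116 for macrophages (CD68, CD14 and CSF1R) and 186 to 381 for germ cells (KIT, UCHL1 and ZBTB16), where KIT alone gave 140 to 334. Background made up an expected 45.7% of the TEK counts, 25.0% of the CD14 counts, 42.6% of the CSF1R counts and 23.9% of the ZBTB16 counts, beside 9.16% for CD68. For Leydig cells (INSL3, CYP17A1 and LHCGR) it was 936 to 1139 in baseline NPSC and 713 to 760 in complement NPSC, so that the sums of the Leydig and of the Sertoli cell markers were lower in complement NPSC. By edgeR 0 genes of these 6 marker lists were called, while DESeq2 called CLU and LYZ, both lower, and their part in the levels described here was not tested. MYH11 and CYP11A1, which help define peritubular myoid and Leydig cells, had 0 counts in all 6 libraries, which allows up to 3 counts in each.

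THBS1 was by far the most counted of the 10 genes. It took 3.11%, 3.08% and 2.61% of all counts in baseline NPSC replicates 1, 2 and 3, and 2.83%, 2.85% and 4.50% in complement NPSC replicates 1, 2 and 3. The gene stood at place 2 by counts in 5 libraries and at place 1 in complement NPSC replicate 3, where the 95% Wilson interval of its share, which covers counting error only, was 4.48% to 4.51%. The 10 genes together took between 3.32% and 5.68% of a library, and THBS1 made up between 77.2% and 82.3% of their counts.

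**Figure D1:**
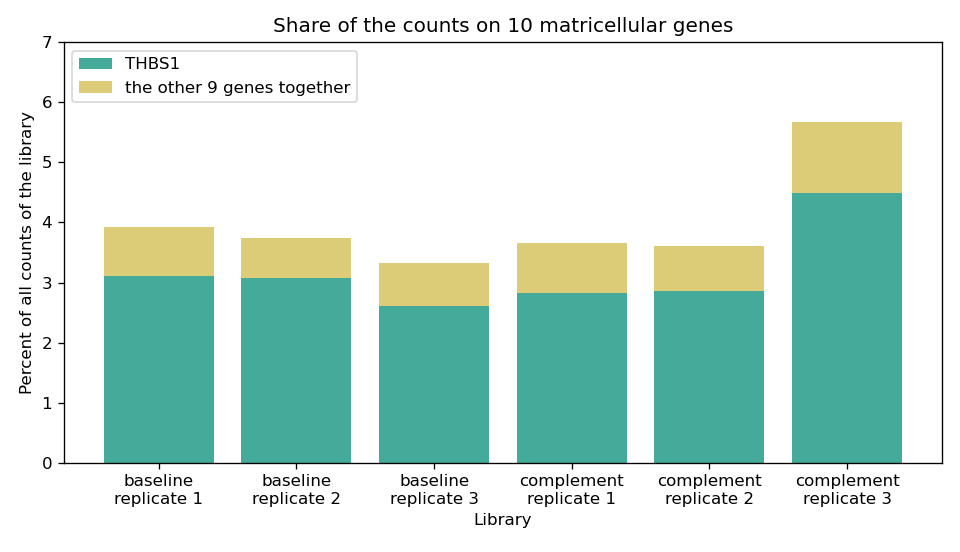
Percent of all counts of each library (vertical axis) taken by THBS1 and by the other 9 genes together, stacked in 1 bar per library. The 5 other libraries lie between 3.32% and 3.93%, below the 5.68% of complement NPSC replicate 3.

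Per kilobase of exon, baseline NPSC held THBS1 at 5360 ± 468 CPM per kilobase (SD, n = 3), SPARC at 2110 ± 182, CCN2 at 675 ± 185, CCN1 at 623 ± 126, FN1 at 391 ± 69.6 and SPP1 at 102 ± 37.6. The remaining genes were lower, with THBS2 at 25.6 ± 5.10 CPM per kilobase, THBS3 at 18.8 ± 6.38, TNC at 18.8 ± 3.15 and THBS4 at 7.49 ± 3.34. In this order the ranges of CCN2 and CCN1, of THBS2 and THBS3, and of THBS3 and TNC overlapped, and the other neighbours did not. The 4 thrombospondins thus spanned the whole order, with THBS1 first and THBS4 last. The SPARC model in the files has only 465 bp of exon in 4 blocks, too little for its coding sequence, so its level per length rests on part of the gene.

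In complement NPSC the per-length levels were THBS1 at 5700 ± 2507 CPM per kilobase (SD, n = 3), SPARC at 1659 ± 228, CCN1 at 914 ± 300, CCN2 at 807 ± 242, FN1 at 430 ± 291 and SPP1 at 161 ± 99.3. TNC followed at 26.8 ± 2.73 CPM per kilobase, THBS2 at 23.7 ± 7.28, THBS3 at 20.3 ± 3.83 and THBS4 at 5.99 ± 1.25. Neighbours from CCN1 down to SPP1 overlapped in their ranges, as did TNC with THBS2 and THBS2 with THBS3. THBS1 and SPARC headed the order and THBS4 closed it in both groups.

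**Figure D2:**
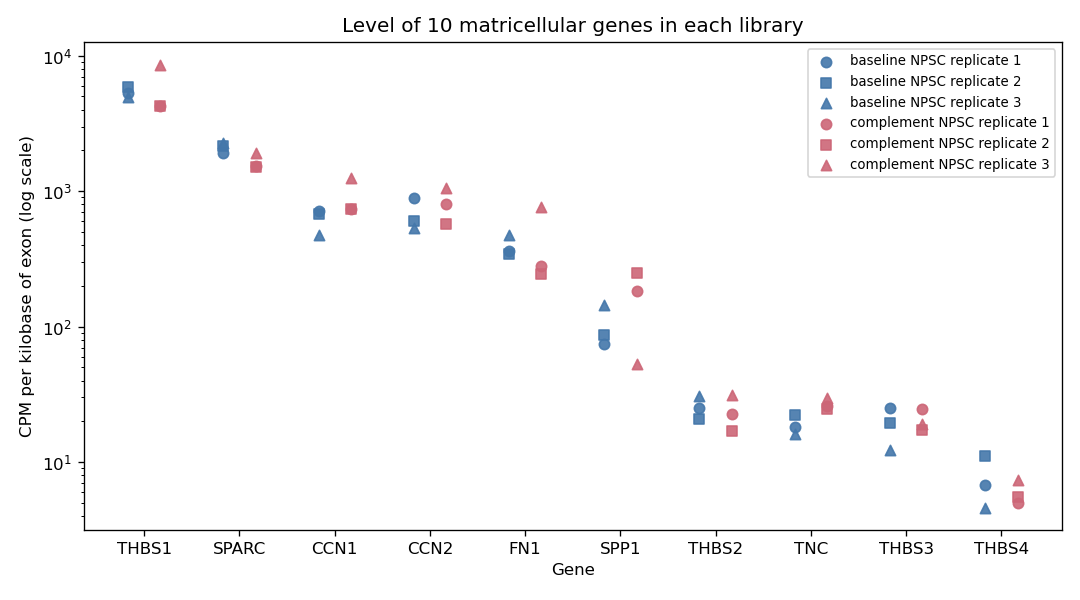
Level of each of the 10 genes in each library, in CPM per kilobase of exon on a log scale, with 1 point per library, baseline NPSC in blue and complement NPSC in red. THBS1 lies highest and THBS4 lowest, and the triangle of complement NPSC replicate 3 lies above the other complement points for THBS1, FN1, CCN1 and CCN2 and below them for SPP1.

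None of the 10 genes passed the test between complement NPSC and baseline NPSC. By the quasi-likelihood test of edgeR with Benjamini-Hochberg adjustment over 17512 genes, 0 of 10 had an adjusted p under 0.05 together with a log2 fold change beyond 0.7, against 0.103% of all tested genes (18 of 17512, with 0.0914% higher and 0.0114% lower). At an unadjusted p under 0.05 the count was 1 of 10 (TNC, higher), against 15.2% of all tested genes, 10.9% higher and 4.28% lower. The Wald test of DESeq2 also called 0 of 10, against 0.396% of the genes for which it gave an adjusted p, and had 1 of 10 at an unadjusted p under 0.05, against 12.0%. The log2 fold change was above 0 for 7 of the genes and below 0 for 3, with a median of 0.12 beside 0.02 over all tested genes. All log2 fold changes given here are complement NPSC over baseline NPSC, and every interval is a 95% interval.

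**Figure D3:**
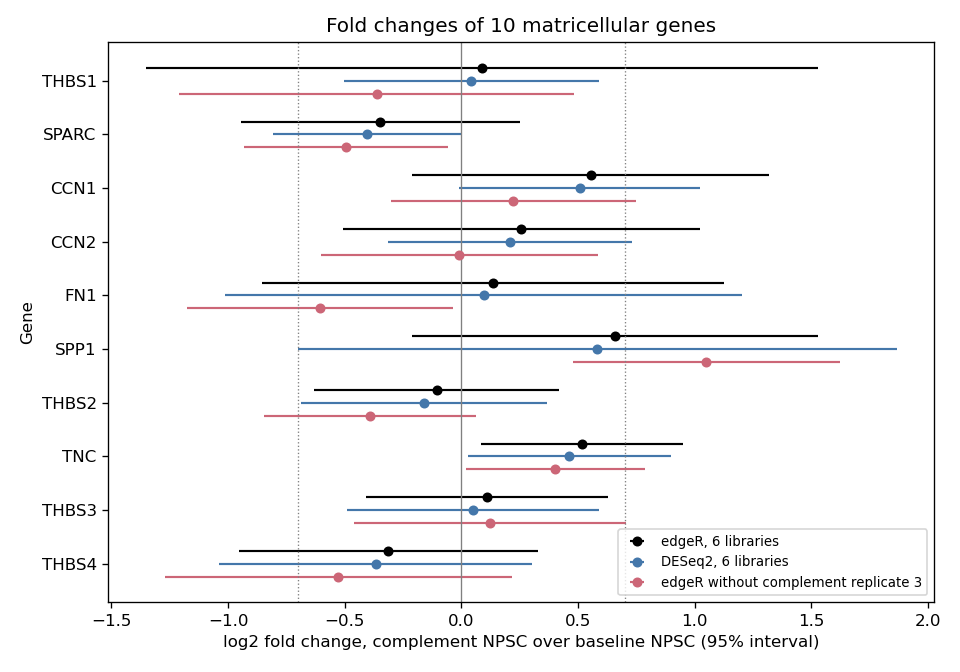
log2 fold change of each gene, complement NPSC over baseline NPSC, with 95% intervals, from edgeR on 6 libraries (black), DESeq2 on 6 libraries (blue) and edgeR without complement NPSC replicate 3 (red). The dotted lines mark 0.7 in either direction. The edgeR estimates from 6 libraries run from -0.35 for SPARC to 0.66 for SPP1, and the estimates for THBS1, CCN2 and FN1 lie on the other side of 0 without that replicate.

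Among the thrombospondins, THBS1 (ENSSSCG00000004789, chromosome 1, 146905998 to 146923333, in the unnamed build of the files) was at 30611, 34152 and 28794 CPM in baseline NPSC replicates 1, 2 and 3. In complement NPSC replicates 1, 2 and 3 it was at 24701, 24788 and 50005 CPM. Complement NPSC replicates 1 and 2 lay below all baseline libraries and replicate 3 above them all, so the groups overlapped. The means were 31185 ± 2725 CPM in baseline NPSC and 33165 ± 14584 CPM in complement NPSC (SD, n = 3), and the log2 fold change was 0.09 (SE 0.68, interval -1.35 to 1.53, adjusted p = 0.950 by edgeR). DESeq2 gave 0.04 with a narrower interval of -0.50 to 0.59. Without complement NPSC replicate 3 the log2 fold change was -0.36 (adjusted p = 0.489 by edgeR), so the direction rests on that library. It was 0.54 with the olfactory receptor density as a covariate and 0.31 with the expected background subtracted. Background made up an expected 0.0377% of the THBS1 counts.

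THBS2 (ENSSSCG00000004012, chromosome 1, 1590789 to 1616464), which shares the trimeric structure of THBS1 and is known for its part in collagen fibril assembly, was at 143, 117 and 175 CPM in baseline NPSC replicates 1, 2 and 3 and at 130, 96.4 and 179 CPM in complement NPSC replicates 1, 2 and 3. The groups overlapped over nearly their whole range. Its log2 fold change was -0.11 (SE 0.25, interval -0.63 to 0.42, adjusted p = 0.820 by edgeR), and it became 0.04 without baseline NPSC replicate 3 and 0.07 without complement NPSC replicate 2. Within each library THBS1 exceeded THBS2 per kilobase by a ratio of 161 to 284 in baseline NPSC libraries and 186 to 274 in complement NPSC.

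THBS3 and THBS4 belong to the pentameric thrombospondins, as does COMP, the cartilage oligomeric matrix protein. THBS3 (ENSSSCG00000006524, chromosome 4, 103395530 to 103406728) was at 79.3, 61.5 and 38.9 CPM in baseline NPSC replicates 1, 2 and 3 and at 78.1, 54.6 and 61.0 CPM in complement NPSC replicates 1, 2 and 3. The complement values lay inside the baseline range, and the log2 fold change was 0.11 (SE 0.24, interval -0.41 to 0.63, adjusted p = 0.810 by edgeR). It became -0.14 without baseline NPSC replicate 3 and -0.04 without complement NPSC replicate 1. THBS4 (ENSSSCG00000014117, chromosome 2, 90502275 to 90549368), a thrombospondin of tendon, muscle and nerve, was at 20.9, 34.5 and 14.2 CPM in baseline NPSC replicates 1, 2 and 3 and at 15.6, 17.2 and 22.9 CPM in complement NPSC replicates 1, 2 and 3. The groups overlapped. The log2 fold change was -0.31 (SE 0.30, interval -0.95 to 0.33, adjusted p = 0.569 by edgeR), which became 0.07 without baseline NPSC replicate 2. THBS4 sat closest to the background: an expected 11.9% to 69.7% of its counts per library, and 30.9% over all 6, beside 10.9% for THBS3.

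COMP, which was listed with the remaining thrombospondin and CCN genes, was at 46.5, 42.4 and 16.5 CPM in baseline NPSC replicates 1, 2 and 3 and at 84.8, 58.0 and 52.1 CPM in complement NPSC replicates 1, 2 and 3. All complement libraries lay above all baseline libraries, but the gene did not pass the test (log2 fold change 0.89, SE 0.31, adjusted p = 0.272 by edgeR). It was called without baseline NPSC replicate 1 (log2 fold change 1.14, adjusted p = 0.0469 by edgeR), in a fit that called 327 genes, against 18 on all 6 libraries. An expected 11.2% of its counts were background. Of the 5 genes on this list 4 were matched by symbol, and 0 of 4 were called. CCN3 and CCN4, relatives of CCN1 and CCN2, had log2 fold changes of -0.21 and 0.08, with an expected background of 37.8% and 13.1% of their counts.

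CCN1 (ENSSSCG00000006940, chromosome 4, 142924366 to 142927632) was at 1719.5, 1656 and 1160 CPM in baseline NPSC replicates 1, 2 and 3. In complement NPSC replicates 1, 2 and 3 it was at 1793, 1803 and 3061 CPM. Every complement library lay above every baseline library, by a narrow margin for complement NPSC replicates 1 and 2 and a wide one for replicate 3. The means were 1512 ± 307 and 2219 ± 729 CPM (SD, n = 3), and the gene did not pass the test (log2 fold change 0.55, SE 0.36, interval -0.21 to 1.32, adjusted p = 0.428 by edgeR). Without complement NPSC replicate 3 the log2 fold change was 0.22 (adjusted p = 0.493 by edgeR).

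CCN2 (ENSSSCG00000004192, chromosome 1, 35133813 to 35137139) was at 2103, 1432 and 1279 CPM in baseline NPSC replicates 1, 2 and 3 and at 1900, 1351 and 2501 CPM in complement NPSC replicates 1, 2 and 3. The groups overlapped, with complement NPSC replicate 3 highest and baseline NPSC replicate 3 lowest. The log2 fold change was 0.26 (SE 0.36, interval -0.51 to 1.02, adjusted p = 0.694 by edgeR) and -0.008 without complement NPSC replicate 3. The ratio of CCN1 to CCN2 per kilobase, taken within each library, was 0.800, 1.13 and 0.888 in baseline NPSC, and 0.923, 1.31 and 1.20 in the complement NPSC libraries. These ratios overlapped between the groups and show no difference between the paralogs beyond the spread of the libraries.

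TNC (ENSSSCG00000005494, chromosome 1, 286732772 to 286813962) had the smallest spread within groups among the 7 genes with a log2 fold change above 0. It was at 89.6, 110 and 79.5 CPM in baseline NPSC replicates 1, 2 and 3 and at 128, 123 and 148 CPM in complement NPSC replicates 1, 2 and 3. All 3 complement libraries lay above all 3 baseline libraries, with means of 93.0 ± 15.6 and 133 ± 13.5 CPM (SD, n = 3). The log2 fold change was 0.52 (SE 0.20, interval 0.09 to 0.95, adjusted p = 0.292 by edgeR), below the fold threshold as well. It stayed between 0.40 and 0.74 under all 16 alternative fits. An expected 9.55% of the TNC counts were background.

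CCN1 and TNC were thus 2 of 10 genes whose groups did not overlap, both higher in complement NPSC, against 17.1% of all tested genes in either direction, 8.95% higher and 8.14% lower. With 3 libraries against 3, the smallest two-sided p that an exact permutation test can give is 0.1, which is the value for both. The share of 2 in 10 lies near the background share.

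FN1 (ENSSSCG00000016174, chromosome 15, 130357873 to 130430503) was at 2936, 2788 and 3835 CPM in baseline NPSC replicates 1, 2 and 3. In complement NPSC replicates 1, 2 and 3 it was at 2272, 1994 and 6237 CPM. As for THBS1, complement NPSC replicates 1 and 2 lay below the baseline range and replicate 3 above it. The log2 fold change was 0.14 (SE 0.46, interval -0.85 to 1.13, adjusted p = 0.884 by edgeR) and -0.61 without complement NPSC replicate 3 (adjusted p = 0.109 by edgeR). With the olfactory receptor density as a covariate it was 0.80, past the fold threshold but not called (adjusted p = 0.576 by edgeR). The ratio of THBS1 to FN1 per kilobase was 10.5 to 17.1 in baseline NPSC and 11.2 to 17.4 in complement NPSC, and FN1 itself differed by 3.13-fold between its lowest and highest library.

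SPARC (ENSSSCG00000017082, chromosome 16, 77576865 to 77582777) was at 887, 1004 and 1052 CPM in baseline NPSC replicates 1, 2 and 3 and at 718, 703 and 893 CPM in complement NPSC replicates 1, 2 and 3. The groups overlapped only in that complement NPSC replicate 3 lay just above baseline NPSC replicate 1. The log2 fold change was -0.35 (SE 0.28, interval -0.94 to 0.25, adjusted p = 0.508 by edgeR), and it ran from -0.49 to -0.07 over the 16 alternative fits, nearest to 0 with the expected background subtracted. Only an expected 0.109% of the SPARC counts were background. With that subtraction, the log2 fold changes of all 10 genes but THBS4 were higher than without it. The cause of this shift was not tested. SPARC had the smallest spread within groups of the 10 genes, at percentile 10.8 of all tested genes, beside percentile 97.6 for SPP1, 90.4 for FN1 and 68.2 for THBS1.

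Complement NPSC replicate 3 was the highest of the 6 libraries for 6 of the 10 genes (THBS1, THBS2, CCN1, CCN2, TNC and FN1), against 13.8% of all tested genes. On the log2 scale it exceeded the mean of complement NPSC replicates 1 and 2 by 1.55 for FN1, 1.01 for THBS1, 0.77 for CCN1, 0.66 for THBS2 and 0.62 for CCN2, while SPP1 was lower by -2.03. The summed CPM of the peritubular myoid cell markers was 2300 and 2290 in complement NPSC replicates 1 and 2 and 4259 in replicate 3, and that of the endothelial cell markers 337, 256 and 608. Baseline NPSC replicate 3 had about as much of both (4247 and 556), and there THBS1 was the lowest of the baseline libraries and FN1 the highest. Their part in the levels of the 10 genes was not tested. Without complement NPSC replicate 3, the groups of 6 of the 10 genes did not overlap, CCN1, SPP1 and TNC being higher and THBS1, SPARC and FN1 lower, against 58.6% of 18443 genes in either direction, 31.4% higher and 27.1% lower.

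**Figure D4:**
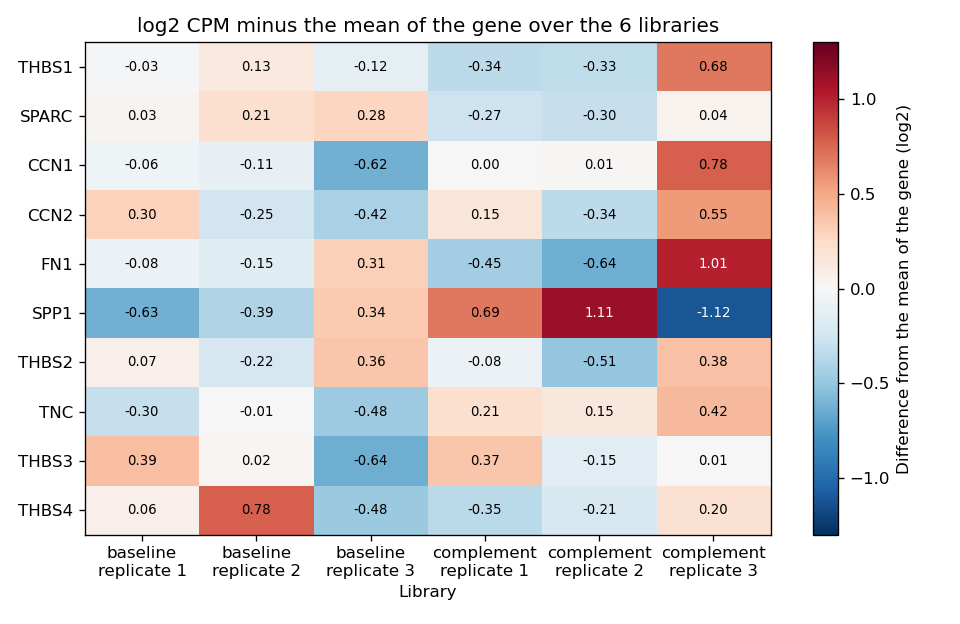
log2 CPM of each gene in each library after subtraction of the mean of that gene over the 6 libraries, with red above and blue below that mean. The column of complement NPSC replicate 3 holds the highest value of 6 genes and the lowest value of SPP1 (-1.12).

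SPP1 (ENSSSCG00000009216, chromosome 8, 140307938 to 140315415) was at 106, 125 and 207 CPM in baseline NPSC replicates 1, 2 and 3, and at 264, 354 and 75.4 CPM in complement NPSC replicates 1, 2 and 3. Complement NPSC replicates 1 and 2 were the highest libraries and replicate 3 the lowest of all 6, a range of 4.69-fold. The means were 146 ± 53.8 and 231 ± 142 CPM (SD, n = 3), and the log2 fold change was 0.66 (SE 0.41, interval -0.21 to 1.53, adjusted p = 0.413 by edgeR). Without complement NPSC replicate 3, SPP1 was the only gene of the 10 to be called (log2 fold change 1.05, SE 0.26, adjusted p = 0.0411 by edgeR), against 8.35% of all 18443 genes tested in that fit. It was 0.20 without complement NPSC replicate 2 (adjusted p = 0.887 by edgeR) and 0.98 without baseline NPSC replicate 3 (adjusted p = 0.657 by edgeR). With the olfactory receptor density as a covariate its log2 fold change was -0.57. An expected 1.72% of the SPP1 counts were background. The summed CPM of 5 macrophage markers was 86.4, 78.6 and 116 in baseline NPSC, and 88.1, 95.7 and 62.2 in the complement NPSC libraries. CD68, CD14 and MRC1 were lowest of all in complement NPSC replicate 3, and CSF1R and LYZ were not. Background made up an expected 9.16% of the CD68 counts, 25.0% of CD14, 42.6% of CSF1R, 43.7% of LYZ and 57.5% of MRC1. The olfactory receptor density was 4.01, 4.43 and 1.51 in complement NPSC replicates 1, 2 and 3, so part of the drop in the sum may be background. The part of macrophages in the SPP1 level was not tested.

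Next to SPP1 on chromosome 8 lie MEPE, IBSP and DMP1, acidic phosphoproteins of bone and dentin matrix that belong with SPP1 to the small integrin-binding ligand N-linked glycoprotein family. These genes were on the list of other matricellular genes, and they were looked at together after their values had been seen. IBSP (bone sialoprotein, 140438440 to 140452173) was at 6.81, 31.4 and 50.7 CPM in baseline NPSC replicates 1, 2 and 3 and at 132, 147 and 4.34 CPM in complement NPSC replicates 1, 2 and 3. DMP1 (140501465 to 140515963) was at 7.39, 11.8 and 18.4 CPM in baseline NPSC replicates 1, 2 and 3 and at 41.6, 61.1 and 5.56 CPM in complement NPSC replicates 1, 2 and 3. For SPP1, IBSP and DMP1 the libraries stood in the same order, from complement NPSC replicate 3 through baseline NPSC replicates 1, 2 and 3 to complement NPSC replicates 1 and 2. With SPP1 left out, 0.194% of the tested genes shared this order, and IBSP and DMP1 are counted in that share.

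Neither neighbour passed the test on 6 libraries, with log2 fold changes of 1.66 for IBSP (SE 0.76, adjusted p = 0.321 by edgeR) and 1.51 for DMP1 (SE 0.55, adjusted p = 0.281 by edgeR). Both were called without complement NPSC replicate 3, IBSP at 2.20 (adjusted p = 0.0385 by edgeR) and DMP1 at 2.00 (adjusted p = 0.0382 by edgeR), as were 8.35% of all genes tested in that fit. Background made up an expected 6.15% of the IBSP counts (3.95% to 59.4% per library) and 27.0% of the DMP1 counts (16.9% to 81.0% per library). The highest of these shares were in complement NPSC replicate 3, with 25 counts of IBSP and 32 of DMP1, so the low end of the shared order rests on counts that were mostly expected background. MEPE, with 8 to 20 counts per library and an expected background of 72.5%, could not be told from background at this depth. Of the 12 genes of the files within 350 kb of SPP1, 3 had this library order, namely SPP1, IBSP and DMP1. PKD2, which lies 18.9 kb from SPP1 on its other side, had 149, 140 and 141 CPM in baseline NPSC and 122, 109 and 175 CPM in complement NPSC, with complement NPSC replicate 3 highest. SPARCL1, a relative of SPARC 284 kb away, had a log2 fold change of -0.21.

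The genes with a symbol whose centred log2 CPM lay nearest to that of a member were found by the root mean square difference over the 6 libraries. For THBS1 they were VEGFC, a growth factor of lymphatic vessels, at 0.0564, KIAA1328 at 0.0655 and the metalloprotease gene ADAMTS1 at 0.101, beside a median of 0.417 over 11053 genes. An expected 27.9% of the KIAA1328 counts were background. Like THBS1, VEGFC was lowest in complement NPSC replicates 1 and 2, at 35.8 and 34.4 CPM, and highest in replicate 3, at 67.2 CPM, beside 42.7 to 46.9 CPM in baseline NPSC. For CCN2 the nearest were PGAM2 at 0.0609, LMOD2 at 0.120 and RIBC1 at 0.152, all at a mean of 10.9 CPM or less and with an expected background of 15.7%, 54.4% and 42.8%. For CCN1 they were SYNDIG1 at 0.139, LBX1 at 0.142 and ZSWIM4 at 0.146, of which only ZSWIM4, at a mean of 153 CPM, stood well above its expected background of 7.67%. Among the members, TNC took place 38 and CCN2 place 87 in likeness to CCN1.

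Around the 10 genes, 0 genes of the 7 lists of related genes were called by edgeR and 1 (F3) by DESeq2. Of 16 further matricellular genes, 4 were higher (IBSP, DMP1, MEPE and TNR) and 1 was lower (FBLN2) at an unadjusted p under 0.05, against 10.9% and 4.28% of all tested genes, and their median log2 fold change was 0.03. The background limits of IBSP, DMP1 and MEPE hold here too, and an expected 44.7% of the counts of TNR (tenascin-R) were background. The most counted per length of these were FBLN1, TGFBI and FBLN2, of which the first pair had log2 fold changes of -0.02 and 0.13. FBLN2, fibulin-2 of basement membranes and elastic fibres, was at 213, 222 and 203 CPM in baseline NPSC and 130, 97.3 and 194 CPM in complement NPSC. All its complement libraries lay below the baseline range, and the gene did not pass the test (log2 fold change -0.60, SE 0.25, adjusted p = 0.304 by edgeR). Without complement NPSC replicate 3 it was called, at -0.93 (adjusted p = 0.0382 by edgeR), as were 8.35% of all genes tested in that fit.

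Of 15 tested receptors of matricellular proteins, 3 were higher (ITGA5, ITGB3 and ITGB6) and 0 lower at an unadjusted p under 0.05, against 10.9% and 4.28% of all tested genes, with a median log2 fold change of -0.003. ITGB6, with 5 to 27 counts per library, lay below its expected background. ITGA5, the alpha chain of the main fibronectin receptor, was at 644, 737 and 725 CPM in baseline NPSC replicates 1, 2 and 3. In complement NPSC replicates 1, 2 and 3 it was at 912, 991 and 2051 CPM. The groups did not overlap, and the gene did not pass the test (log2 fold change 0.91, SE 0.35, adjusted p = 0.282 by edgeR, and 0.41 without complement NPSC replicate 3). Its partner ITGB1 differed by -0.28 on the log2 scale (SE 0.34, adjusted p = 0.647 by edgeR), and CALR, a chaperone that also acts as a cell surface partner of THBS1, had -0.44 (SE 0.27, adjusted p = 0.415 by edgeR). CD47, the thrombospondin receptor, was at 14.0 to 35.4 CPM over the 6 libraries with a log2 fold change of -0.01, and CD44, a receptor of SPP1, at 401 to 846 CPM with -0.003.

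YAP with TAZ, and SRF with MRTF, are transcription regulators known to act on CCN1 and CCN2. Of 13 tested YAP and TAZ targets other than the CCN genes, 0 were called by edgeR. At an unadjusted p under 0.05, 2 were higher and 0 lower, against 10.9% and 4.28% of all tested genes. The median log2 fold change was -0.19, beside 0.02 over all tested genes. F3 (tissue factor), which the study had itself picked out on these libraries, was at 437 ± 77.9 CPM in baseline NPSC and 910 ± 261 CPM in complement NPSC (SD, n = 3) (log2 fold change 1.06, SE 0.30, adjusted p = 0.261 by edgeR), while AMOTL2 and CRIM1 had -0.11 and -0.19. F3 was called at 0.79 when complement NPSC replicate 3 was left out (adjusted p = 0.0444 by edgeR), as were 8.35% of all genes tested in that fit. All 8 tested SRF and MRTF targets had log2 fold changes below 0, as had 8492 of the 17512 tested genes. The median of the 8 was -0.18, beside 0.02 over all tested genes, with ACTB at -0.48, ACTG1 at -0.19 and TAGLN at -0.17 among them. At an unadjusted p under 0.05, 0 of 8 were higher or lower, against 10.9% and 4.28% of all tested genes.

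Of 10 tested TGF-beta ligands and response genes, 1 was lower and 0 were higher at an unadjusted p under 0.05, against 4.28% and 10.9% of all tested genes. LTBP1, LTBP2 and TGFBR2 had log2 fold changes of -0.26, -0.17 and -0.25. Of 12 tested proteases, inhibitors and cross-linkers of the matrix, 2 were higher and 2 lower at an unadjusted p under 0.05, against 10.9% and 4.28% of all tested genes. The most counted per length, TIMP1, PLAT and LOX, had log2 fold changes of 0.11, -0.12 and -0.48. LTBP1 was called at -0.73 and LOX at -0.72 when complement NPSC replicate 3 was left out (adjusted p = 0.0481 and 0.0469 by edgeR), as were 8.35% of all genes tested in that fit.

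**Figure D5:**
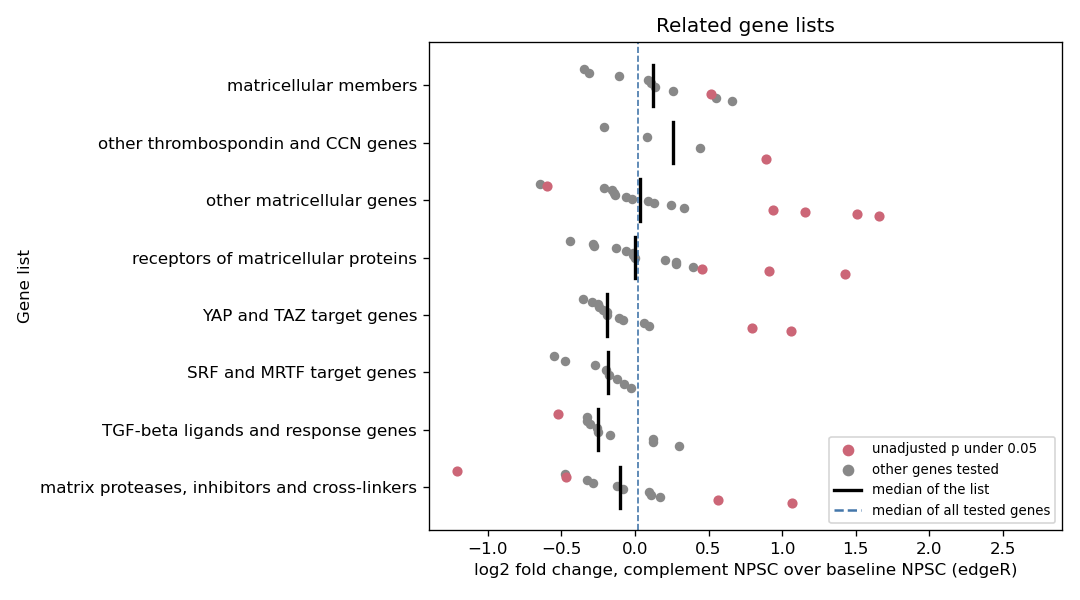
log2 fold change by edgeR, complement NPSC over baseline NPSC (horizontal axis), of each tested gene of the 10 members and of 7 lists of related genes (vertical axis), with a black bar at the median of each list and a dashed line at the median of all tested genes. Red points have an unadjusted p under 0.05 and grey points do not, and the list medians run from -0.25 to 0.26.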

How the data were processed

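RNA sequencing was performed on 3 baseline NPSC and 3 complement NPSC plates, 1 library each. Per the labels, the submitters' processing notes name Trimmomatic 0.36, STAR 2.5.2b and featureCounts of Subread 1.5.2. The genome build and strand setting were not given in the sources used here. The files deposited by the authors hold whole-number, unnormalized counts for each gene and a Length column with the summed exon length in bp. Coordinates are those of the deposited files: chromosome 1 reaches base 315294641, past the last gene base of RefSeq Sscrofa11.1 (274280750), so no reference coordinates were used. Tables of gene names paired 11804 identifiers with a symbol, and 11054 of those were tested. No table of sequences was used here.

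Counts were analysed in R 4.3.3 with edgeR 4.0.16 (glmQLFit and the quasi-likelihood F-test after filterByExpr and TMM scaling, with Benjamini-Hochberg adjustment over 17512 genes). CPM are relative to the TMM-scaled library size, while shares and the olfactory receptor density use the library total. The study's own test, the Wald test of DESeq2 1.42.0, and 15 other fits were the alternatives: DESeq2's size factors, upper-quartile scaling, library sizes without the 20 most counted genes, filters of 1 count in any or 10 counts in all libraries, a replicate block in either tool, background subtraction, an olfactory receptor density covariate and leaving out each library. Calls required a log2 fold change beyond 0.7 and an adjusted p under 0.05. The procedure was tested on simulated data. Replicates of a group differed beyond counting noise (chi-square per degree of freedom 4.28 to 17.4), and p-values measure the spread between plates, which may be technical.

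The members and the 14 gene lists were chosen with earlier results of these data known. Named were all members, the called genes and the 3 genes with the highest CPM per kilobase of each list, and the 3 genes nearest in pattern to THBS1, CCN1 and CCN2. MEPE, IBSP, DMP1, PKD2, SPARCL1, CD44, CD47, ITGB3, ITGB6, TNR, MYH11, CYP11A1, GATA4, WT1, SOX9, KRT18, DHH and TF were named after values had been seen, as were the genes in the limits of the closing section.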

Additional observations from a re-analysis of the deposited data

How the results depend on the processing

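Over 160 log2 fold changes (10 genes under 16 alternative fits), 144 kept their direction and their side of the call and 15 changed direction, while 1 became a call, that of SPP1 without complement NPSC replicate 3. CCN1, SPARC and TNC kept their direction under all 16 fits. With the olfactory receptor density as a covariate, log2 fold changes were 0.54 for THBS1, 0.23 for THBS2, -0.13 for THBS3, -0.02 for THBS4, 0.81 for CCN1, 0.37 for CCN2, -0.11 for SPARC, -0.57 for SPP1, 0.66 for TNC and 0.80 for FN1. With the expected background subtracted they were 0.31, 0.017, 0.27, -0.78, 0.78, 0.48, -0.07, 1.05, 0.74 and 0.31 in the same order of genes. None of these was a call. Leaving out 1 library at a time, log2 fold changes ranged from -0.36 (without complement NPSC replicate 3) to 0.26 for THBS1, from -0.39 to 0.068 (without complement NPSC replicate 2, and 0.04 without baseline NPSC replicate 3) for THBS2, from -0.14 (without baseline NPSC replicate 3, and -0.04 without complement NPSC replicate 1) to 0.35 for THBS3, from -0.58 to 0.070 (without baseline NPSC replicate 2) for THBS4, from -0.0084 (without complement NPSC replicate 3) to 0.49 for CCN2, from -0.61 (without complement NPSC replicate 3) to 0.40 for FN1, from 0.22 (without complement NPSC replicate 3) to 0.69 for CCN1, and from 0.20 (without complement NPSC replicate 2) to 1.05 (without complement NPSC replicate 3) for SPP1. Members called ranged from 0 to 1 in these fits, genes called from 9 to 1540 (the latter without complement NPSC replicate 3), and members without overlap from 2 to 6. In other fits the genes called were 63 by DESeq2, 31 with at least 1 count, 31 with background subtracted and 63 with the covariate. Over all tested genes the median log2 fold change went from 0.02 to 0.13 under upper-quartile scaling, where 21 genes were called, all higher. The cause of these differences was not tested.

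The replicate block was run although same-numbered plates are not known to share cells. Deviations from the group means correlated at 0.456, 0.0302 and 0.482 for numbers 1, 2 and 3. Baseline NPSC replicates 1 and 3 correlated best with their own number. Baseline NPSC replicate 2 had 0.0665 with complement NPSC replicate 3. Deviations of 3 libraries from their own mean are not independent, so these values cannot decide whether the numbers are pairs. The fits without a block did not take them as pairs. With the replicate block, genes called were 1575 by edgeR and 189 by DESeq2, and members called were 0 by both. THBS1 was at -0.057 and FN1 at -0.11 by DESeq2 with the block, FN1 was at -0.054 by edgeR with it, and TNC was at 0.53 (adjusted p = 0.0316 by edgeR), below the fold threshold.

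The alternatives of the lists were chosen after seeing the data. DESeq2 called 1 YAP and TAZ target (F3), 1 Sertoli cell marker (CLU) and 1 macrophage marker (LYZ). With background subtracted 1 YAP and TAZ target (F3) was called, and with the covariate 2 YAP and TAZ targets (F3 and FJX1), 1 receptor (ITGA5) and 1 protease (ADAMTS9). The replicate block in DESeq2 gave 1 other thrombospondin gene (COMP), 1 other matricellular gene (FBLN2), 1 receptor (ITGA5), 2 YAP and TAZ targets (F3 and FJX1) and 4 Sertoli cell markers (WT1, GATA4, CLU and INHA). The replicate block in edgeR gave 1 (COMP), 3 (TNR, IBSP and DMP1), 2 (ITGA5 and ITGB6), 2 (F3 and FJX1) and 3 (GATA4, INHA and TF) for these lists, with 2 proteases (ADAMTS4 and MMP9) and 1 macrophage marker (LYZ). Leaving out 1 library gave 0 to 4 other matricellular genes (TNR, FBLN2, IBSP and DMP1 without complement NPSC replicate 3), 0 to 2 Sertoli cell markers (WT1 and GATA4), and 0 to 1 each of the other thrombospondin and CCN genes (COMP), receptors (ITGB6), YAP and TAZ targets (F3), SRF and MRTF targets (TPM1), TGF-beta genes (LTBP1), proteases (ADAMTS4 or LOX) and macrophage markers (LYZ). Depth limits, among others, THBS4, MEPE, TNR, TF, LYZ and ITGB6, with expected backgrounds of 30.9%, 72.5%, 44.7%, 46.9%, 43.7% and 208% of their counts. The same holds for CCN3, CSF1R, TEK and MRC1, with 37.8%, 42.6%, 45.7% and 57.5%.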
